A study of Homo sapiens with 12 samples.

Results

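OVCAR8 cells, an established Ras-mutant human ovarian cancer line, were treated for 7 h with either 150 nM EC359 or 100 nM trametinib, and the transcripts of the 3 EC359 libraries were compared directly with those of the 3 trametinib libraries. The libraries were chosen by their treatment labels alone and are 6 of the 12 in the series. The other libraries are 3 vehicle controls, used here to show which agent moved a gene, and 3 that received both agents. No label tells whether libraries of a condition came from separate cultures, so p-values measure the spread between these libraries, which may be technical. Both agents met one cell line at one time point, and their doses differ, so each difference belongs to the 2 treatments as given.

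EC359 is a small molecule inhibitor of the leukemia inhibitory factor receptor (LIFR). LIF binds LIFR together with gp130, the subunit shared by the IL-6 family and encoded by IL6ST. It signals through JAK kinases to STAT3 and also to the Ras and MAPK cascade. Trametinib inhibits MEK1 and MEK2, the kinases that activate ERK. Active ERK induces immediate early transcription factors such as EGR1 and FOS, and it induces its own inhibitors, the Sprouty proteins and the dual specificity phosphatases (DUSPs), whose transcripts therefore serve as a readout of the pathway.

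The 6 libraries held between 24790392 and 31311690 counted reads, and a count of 0 allows up to 3 reads, or 0.0936 to 0.127 CPM (reads of a gene relative to the TMM-scaled total of its library). Over the tested genes, which do not vary independently of each other, Pearson's r of log2 CPM ran from 0.993 to 0.994 within a condition and from 0.970 to 0.971 between EC359 and trametinib libraries. Of 15 markers of serous and ovarian epithelium, 8 were expressed highly enough to be tested. PAX8, a transcription factor of Müllerian epithelium, stood at 117, 107 and 108 CPM with EC359 and 93.4, 92.9 and 89.0 CPM with trametinib, and the keratins KRT7 and KRT8 were at 899 ± 22.8 and 1907 ± 33.1 CPM (SD, n = 3) with EC359 and 964 ± 23.9 and 1769 ± 32.5 CPM with trametinib. The log2 difference of KRT8 between the agents, 0.11, turned to -0.051 under total counts. VIM, the most counted of the 8, was at 3032.5 ± 43.9 CPM with EC359 and 2148.6 ± 17.9 CPM with trametinib. In contrast, MECOM, MUC16, SOX17, KRT19, CDH6 and ESR1 had at most 4 counts in any library, and CDH1 had at most 15. Of 18 markers of blood, vessel, stroma and other cells, 13 were not expressed enough to be tested, and PTPRC, CD3E, DCN and HBB had no count.

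Of 14865 genes tested, 1204 differed between EC359 and trametinib by at least 2-fold with an adjusted p under 0.05 (the quasi-likelihood test of edgeR, with p-values adjusted after Benjamini and Hochberg), which is 8.10% of the genes. Of these, 699 were higher with EC359 (4.70%) and 505 were higher with trametinib (3.40%). The largest differences lay on the EC359 side, where 179 genes differed by at least 4-fold and 71 by at least 8-fold, against 57 and 11 genes on the trametinib side. Compared to control, EC359 changed 1038 genes by this rule (6.98%), 623 up (4.19%) and 415 down (2.79%), and trametinib changed 213 (1.43%), 71 up (0.478%) and 142 down (0.955%). These 2 comparisons share the control libraries with each other and a treated group with the direct comparison, so their values are given side by side and not as independent support.

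The split between the directions rested on the normalization. With TMM factors, 58.1% of the called genes were higher with EC359 and the median log2 difference of all genes was -0.014. Scaling by total counts alone moved that median to -0.17, a shift of all genes toward trametinib, and left 40.2% of the called genes higher with EC359, 532 against 790. Log2 differences below are EC359 minus trametinib after TMM, and a direction that turned under total counts is named with its gene or group.

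**Figure D1:**
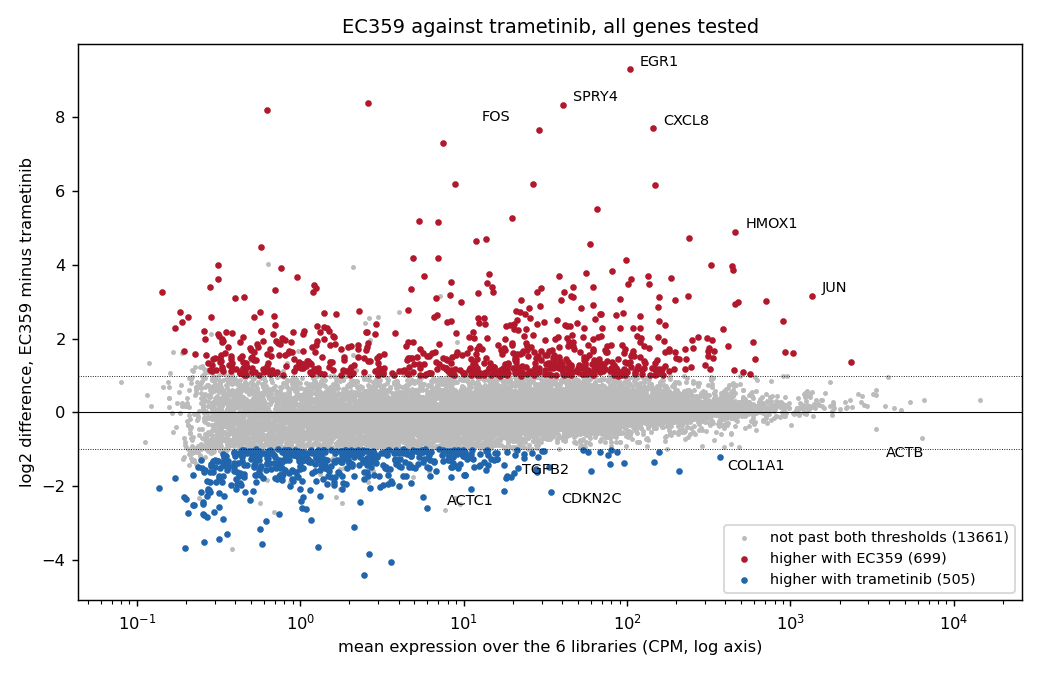
Log2 difference between EC359 and trametinib (vertical axis) against the mean expression in the 6 libraries (horizontal axis, CPM on a log scale) for the 14865 genes tested. Red and blue points are the 699 and 505 genes past both thresholds, dotted lines mark a 2-fold difference, and the red points reach a log2 difference of 9.30 (EGR1) while most blue points lie at low expression.

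With a minimum fold left aside, 62.8% of all genes differed at an adjusted p under 0.05, 31.6% higher with EC359 and 31.2% higher with trametinib. These shares are the background for the counts of gene groups below, which use this rule unless a 2-fold difference is named. Compared to control, the same rule found 61.1% of genes changed with EC359 (30.8% up and 30.3% down) and 28.2% changed with trametinib (13.0% up and 15.2% down). The EC359 and trametinib libraries did not overlap in 66.3% of genes. Most of the differences were small. In 11745 genes (79.0%) the 95% confidence interval of the log2 difference lay within -1 to 1.

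The sharpest contrast was in the genes that ERK induces to restrain itself. All 10 tested genes of a list of ERK negative feedback were higher with EC359 than with trametinib, 9 of them by at least 2-fold, with a median log2 difference of 3.45. SPRY4, a Sprouty inhibitor of receptor tyrosine kinase signaling on chromosome 5 from 142310427 to 142325055 in hg38, had 81.6, 79.7 and 81.7 CPM with EC359 and 0.281, 0.266 and 0.195 CPM with trametinib, with 19.2, 19.1 and 20.3 CPM in control. The control lay between the agents in each library, and the log2 difference was 8.33 (adjusted p = 2.19e-54 by edgeR). Few reads stand behind the trametinib values of SPRY4, so the size of this difference is less certain than its direction. DUSP6, the cytoplasmic phosphatase of ERK on chromosome 12 from 89347825 to 89352859, had 14.6, 15.1 and 14.9 CPM with EC359 against 0.0312, 0.190 and 0.0649 CPM with trametinib, the latter near the limit of a count of 0. The control level of DUSP6 was 4.08 ± 0.385 CPM (SD, n = 3), so that this gene too rose with EC359 and fell with trametinib.

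The nuclear phosphatases behaved alike. DUSP4 was at 10.4 ± 0.632 CPM (SD, n = 3) with EC359 and 0.294 ± 0.207 CPM with trametinib, the latter from few reads, a log2 difference of 5.18. DUSP5, on chromosome 10 from 110497867 to 110511544, was at 188, 186 and 183 CPM with EC359, 56.2, 58.4 and 59.2 CPM in control and 10.5, 10.7 and 10.9 CPM with trametinib, a log2 difference of 4.12 ± 0.043 (SE). DUSP7 was the member under 2-fold, at 54.8 ± 1.12 CPM with EC359, 56.8 ± 1.09 CPM in control and 35.8 ± 0.983 CPM with trametinib. It fell with trametinib by 0.66 on the log2 scale, whereas with EC359 the change from control was -0.053 (adjusted p = 0.263 by edgeR). Over the list, 8 of 10 genes rose with EC359 and none fell, and 9 of 10 fell with trametinib and none rose.

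Transcription factors and effectors downstream of ERK differed in the same direction. Of 18 genes, 16 were higher with EC359, 14 of them by at least 2-fold, and none was higher with trametinib, with a median log2 difference of 2.64. EGR1 is in this list and in the immediate early list below, so these lists are not separate evidence. The PEA3 factors, ETS proteins whose transcripts follow ERK activity, separated by how far trametinib lowered them. ETV5 had 119, 110.4 and 113 CPM with EC359, 85.0, 82.9 and 90.3 CPM in control and 4.49, 4.79 and 5.26 CPM with trametinib, and ETV1 had 12.1, 14.2 and 13.1 CPM with EC359, 15.4, 14.1 and 13.2 CPM in control and 0.811, 0.494 and 0.811 CPM with trametinib. Both were far lower with trametinib. With EC359, ETV1 did not differ from control past the threshold (log2 change -0.11, adjusted p = 0.358 by edgeR) and ETV5 rose by 0.41, and the direct log2 differences of 4.19 and 4.56 stood beside changes of -4.31 and -4.15 with trametinib.

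MAFF, a small MAF partner of NRF2 and AP-1 proteins, moved both ways from control. Its level was 456, 465 and 463 CPM with EC359, 65.1, 68.5 and 66.7 CPM in control and 16.9, 16.8 and 18.1 CPM with trametinib, a log2 difference of 4.74 ± 0.034 (SE). CCND1, which encodes the G1 cyclin D1, fell with both agents but much further with trametinib: 641, 646 and 643 CPM with EC359, 812, 809 and 803 CPM in control and 188, 181 and 182 CPM with trametinib, a log2 difference of 1.81. UPP1 and KCNN4, the most counted members under 2-fold, differed by 0.92 and 0.24. EPHA4 did not pass the test (log2 difference -0.13, 95% interval -0.61 to 0.36).

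Immediate early genes held the largest differences of the comparison. EGR1, a zinc finger factor induced within minutes of growth factor signaling and located on chromosome 5 from 138465492 to 138469315, had 206, 204 and 211 CPM with EC359, 6.07, 6.66 and 7.98 CPM in control and 0.406, 0.418 and 0.162 CPM with trametinib. Its log2 difference was 9.30 (adjusted p = 8.55e-41 by edgeR), the highest of any gene called, though with few reads behind the trametinib values. The libraries of the 3 conditions did not overlap. FOS had 58.1, 57.8 and 55.9 CPM with EC359 against 0.343, 0.114 and 0.357 CPM with trametinib, the latter from few reads, a log2 difference of 7.65. FOSB had 51.3, 50.2 and 55.5 CPM with EC359 and 0.718, 0.874 and 0.584 CPM with trametinib, where the control was at 1.07 ± 0.0451 CPM (SD, n = 3). EGR3 was counted at 5.87, 4.93 and 4.85 CPM with EC359, while 1 trametinib library held a single read and the other trametinib libraries and all controls held none.

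The EGR1 promoter is shown because EGR1 led the comparison and because serum response factor with its ETS partners, which ERK phosphorylates, acts through CArG boxes. The 150 bases before its RefSeq start, chr5:138465329-138465478 on the plus strand (GRCh38.p14), hold 2 CArG boxes, given in capitals, which begin 105 and 83 bases before the start. A CArG box in either orientation was found in 1.0% of the promoters of genes tested and in 2 of 14 promoters of the immediate early list. It was in 3 of 480 promoters (0.625%) of genes called higher with EC359 and in 7 of 339 (2.06%) of those called higher with trametinib. The ETS motif was in 8.45% of the promoters of genes tested, 2.5% of genes called higher with EC359 and 10.3% of genes called higher with trametinib, and in 0 of 8 promoters of the ERK feedback list. Both shares were larger on the trametinib side, that of the CArG box on few promoters.

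EGR1: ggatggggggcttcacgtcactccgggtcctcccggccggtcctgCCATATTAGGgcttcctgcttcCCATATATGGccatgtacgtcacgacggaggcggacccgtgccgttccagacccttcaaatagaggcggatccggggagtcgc

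The JUN genes rose with EC359 without a fall with trametinib. JUN had 2439, 2453 and 2445 CPM with EC359, 235, 239 and 235 CPM in control and 271, 269 and 278 CPM with trametinib, and JUNB had 270.4 ± 2.01 CPM (SD, n = 3), 35.5 ± 1.90 CPM and 37.6 ± 2.03 CPM in the same order. The changes from control with EC359 were 3.37 and 2.93 on the log2 scale. With trametinib JUN rose by 0.21 and JUNB had a change of 0.084 that did not pass the threshold. Over the 18 immediate early genes, 17 were higher with EC359 and 1, SRF, was higher with trametinib (log2 difference -0.51), with a median of 2.80. Against control, 17 rose with EC359, whereas 8 fell and 2 rose with trametinib. FOSL2, the most counted member under 2-fold, differed by 0.41.

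**Figure D2:**
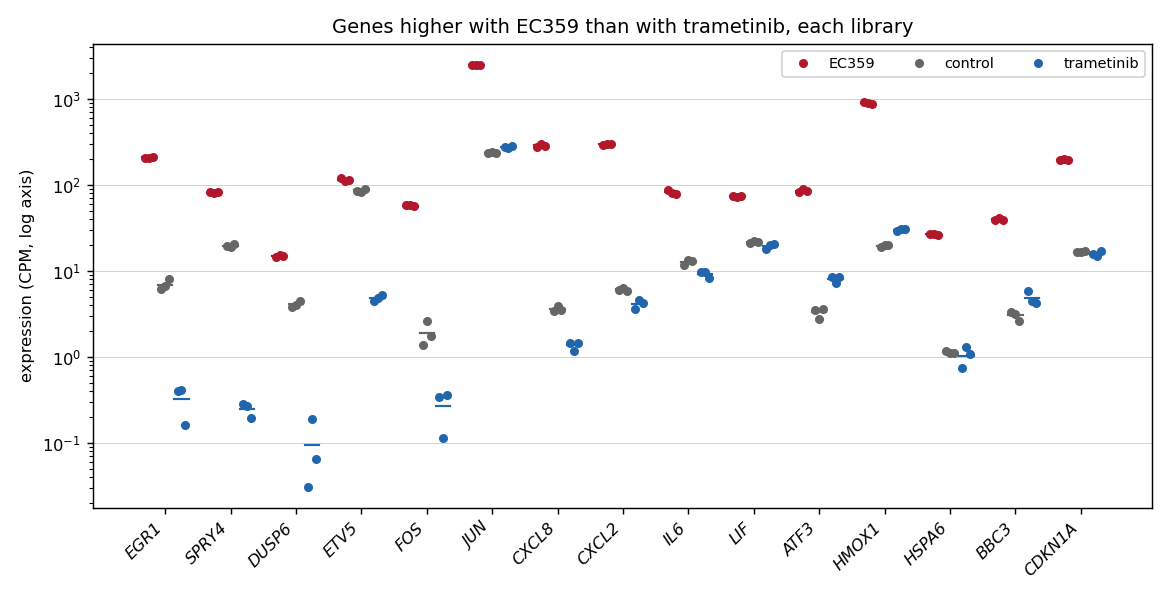
Expression (CPM, log axis) of 15 named genes in each library of EC359 (red), control (grey) and trametinib (blue), with a line at the mean of 3. In EGR1, SPRY4, DUSP6 and FOS the blue points lie below the grey and the red above, whereas in JUN, HSPA6 and CDKN1A the blue points lie near the grey.

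Among further genes with the largest differences, G0S2, an inhibitor of the lipase ATGL, had 17.1, 18.8 and 16.7 CPM with EC359 and 0.281, 0.190 and 0.227 CPM with trametinib, a log2 difference of 6.20. ESM1, a secreted proteoglycan known from endothelial cells, had 12.3, 14.0 and 14.6 CPM with EC359 and 0.343, 0.342 and 0.454 CPM with trametinib, a log2 difference of 5.15. PLK3, a stress-responsive polo-like kinase, had 38.8, 38.5 and 37.8 CPM with EC359 and 0.936, 0.646 and 1.36 CPM with trametinib, a log2 difference of 5.26. The controls of the 3 genes stood between the agents, at 5.78 ± 0.477, 4.82 ± 0.344 and 10.7 ± 0.480 CPM (SD, n = 3).

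The genes of what the agents act on differed by less than 2-fold. LIFR had 19.2, 21.0 and 19.9 CPM with EC359, 18.8, 17.4 and 17.8 CPM with trametinib and 16.8, 13.9 and 15.6 CPM in control. Its log2 difference between the agents was 0.16 (95% interval 0.021 to 0.29; adjusted p = 0.0396 by edgeR) and turned to -0.0039 under total counts. LIFR rose over control with both agents, by 0.38 with EC359 and 0.22 with trametinib. MAP2K1, which encodes MEK1, had 152, 159 and 158 CPM with EC359 and 99.5, 95.2 and 92.9 CPM with trametinib, a log2 difference of 0.71, and MAP2K2, which encodes MEK2, differed by 0.081 and by -0.078 under total counts.

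The ligand and feedback genes of the wider LIF and IL6 family that are named here had larger log2 differences than LIFR. LIF had 74.3, 72.8 and 74.5 CPM with EC359, 18.0, 20.2 and 20.6 CPM with trametinib and 21.2, 22.2 and 21.7 CPM in control, a log2 difference of 1.92 ± 0.048 (SE; adjusted p = 1.73e-39 by edgeR). IL6 had 85.8, 79.8 and 78.7 CPM with EC359 against 9.58, 9.72 and 8.31 CPM with trametinib, IL11 had 73.4, 74.9 and 76.1 CPM with EC359 against 8.11, 7.37 and 7.88 CPM with trametinib, and CLCF1, a ligand of the CNTF receptor, had 97.2, 101 and 97.9 CPM with EC359 against 24.0, 25.1 and 25.7 CPM with trametinib. All of them rose with EC359, by 1.77 for LIF, 2.68 for IL6, 2.79 for IL11 and 1.93 for CLCF1 on the log2 scale. With trametinib the changes were smaller and negative, between -0.15 and -0.47 for LIF, IL6 and IL11, which fell, and -0.057 for CLCF1, which did not pass the test.

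SOCS3, the inhibitor that STAT3 induces against its own receptors, had 61.8, 61.5 and 59.7 CPM with EC359, 19.1, 20.2 and 21.1 CPM in control and 13.8, 14.4 and 15.9 CPM with trametinib, a log2 difference of 2.05. OSMR, the oncostatin M receptor, had 117 ± 2.52 CPM (SD, n = 3) with EC359 and 45.5 ± 2.08 CPM with trametinib, a log2 difference of 1.36, and IL6ST differed by 0.57 and STAT3 itself by 0.16. PTPN11, which encodes SHP2, had a log2 difference of 0.0023 with a 95% interval of -0.048 to 0.052. Over the LIF and IL6 family list, 13 of 22 genes were higher with EC359 and 2 with trametinib, with a median of 0.16 that turned to -0.0019 under total counts.

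Of 17 STAT3 targets, 16 were higher with EC359 and 1, HIF1A, was higher with trametinib, with a median log2 difference of 1.36. PIM1, a survival kinase, had 110.2, 109 and 108 CPM with EC359 and 18.5, 18.1 and 19.6 CPM with trametinib, and VEGFA, the vascular growth factor, had 41.3, 44.7 and 43.9 CPM with EC359 and 10.0, 10.1 and 10.4 CPM with trametinib. Several members, FOS and JUNB among them, are also immediate early genes, so the list is not separate evidence. HIF1A fell with both agents, by 0.28 with EC359 and by 0.14 with trametinib on the log2 scale, and TNFRSF1A, the next most counted member under 2-fold, differed by 0.37.

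Chemokines of the CXCL8 cluster on chromosome 4, which attract neutrophils and are induced by NF-kappaB, were far higher with EC359. CXCL8 had 276, 301 and 283 CPM with EC359, 3.43, 3.90 and 3.50 CPM in control and 1.47, 1.18 and 1.46 CPM with trametinib, a log2 difference of 7.70 (adjusted p = 1.23e-64 by edgeR). CXCL2 had 289.9, 296 and 294 CPM with EC359, 6.03, 6.31 and 5.86 CPM in control and 3.59, 4.596 and 4.19 CPM with trametinib, and CXCL1 had 131, 127 and 127 CPM with EC359, 6.18, 5.87 and 6.71 CPM in control and 3.46, 2.20 and 2.60 CPM with trametinib. In all 3 genes trametinib libraries lay below the controls and EC359 libraries far above. CXCL3 had 21.8, 24.1 and 22.8 CPM with EC359 and 1.09, 0.874 and 0.779 CPM with trametinib, where the control was at 0.637 ± 0.0972 CPM (SD, n = 3) and the change with trametinib did not pass the test. Of 12 chemokine and IL1 genes, 9 were higher with EC359 and none with trametinib, while CCL28 and IL1R1 had differences of -0.024 (95% interval -0.27 to 0.22) and -0.17 (-0.44 to 0.11).

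The upstream sequences of these genes are shown because the CXCL1, CXCL2 and CXCL3 stretches are nearly the same and share one NF-kappaB motif with IL6 and TNFAIP3. Each line gives the NF-kappaB motif GGGANTTCC lengthened by 1 T in its run of T, found in either orientation, in capitals with 10 bases on each side, from RefSeq promoters of GRCh38.p14. The stretches are CXCL1 at chr4:73869304-73869333 (plus strand), CXCL2 at chr4:74099254-74099283 (minus strand), CXCL3 at chr4:74038749-74038778 (minus strand), IL6 at chr7:22727117-22727146 (plus strand) and TNFAIP3 at chr6:137867182-137867211 (plus strand).

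CXCL1: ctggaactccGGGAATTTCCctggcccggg

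CXCL2: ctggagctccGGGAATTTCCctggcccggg

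CXCL3: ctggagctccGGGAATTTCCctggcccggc

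IL6: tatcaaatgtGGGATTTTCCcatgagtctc

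TNFAIP3: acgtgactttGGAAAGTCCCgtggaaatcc

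The motif begins between 67 and 79 bases before the start in all 5. The promoters of CXCL8, which differed most in its cluster, and of ZC3H12A held neither this motif nor GGGANTTCC. The longer form was searched after the shorter had shown none in the chemokine list, so its count there, 4 of 10 promoters, is a description. The shorter form was in 2.3% of the promoters of genes tested, 2.71% of those of genes called higher with EC359 and 5.01% of those of genes called higher with trametinib, so its share was larger on the trametinib side. The longer form was in 0.554% of the promoters of genes tested, in 12 of 480 promoters (2.5%) of genes called higher with EC359 and in 0 of 339 of those called higher with trametinib. Those 12 include CXCL1, CXCL2 and CXCL3 of the list that led to this search, so these shares too are only a description. Of the AP-1 motif TGACTCA, searched in both orientations, the 3 shares were 2.98% of genes tested, 6.67% of those called higher with EC359 and 2.36% of those called higher with trametinib. It lies upstream of CXCL8 at chr4:73740422-73740448 (plus strand), of IL11 at chr19:55370543-55370569 (minus strand) and of BBC3 at chr19:47232764-47232790 (minus strand), with the motif in capitals.

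CXCL8: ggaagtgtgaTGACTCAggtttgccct

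IL11: gcagggagggTGAGTCAggatgtgtca

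BBC3: cactggaaggTGAGTCActctggtgag

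All 20 tested genes of NF-kappaB subunits and feedback were higher with EC359, 13 of them by at least 2-fold, with a median log2 difference of 1.43. TNFAIP3, which encodes the ubiquitin editor A20, had 152, 155 and 145 CPM with EC359 and 10.8, 10.8 and 10.3 CPM with trametinib, against 13.7, 14.8 and 14.1 CPM in control. NFKBIZ had 52.4, 51.9 and 51.2 CPM with EC359 and 7.49, 7.52 and 6.23 CPM with trametinib, and the RNase gene ZC3H12A had 52.6, 49.9 and 51.3 CPM with EC359 and 5.96, 4.596 and 5.48 CPM with trametinib. Both rose with EC359, and their changes with trametinib (-0.025 and -0.049 on the log2 scale) did not pass the test. RELA, the p65 subunit, differed by 0.72 and BIRC2, which encodes cIAP1, by 0.93.

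Stress genes were also mostly higher with EC359. ATF3, a stress-induced bZIP repressor on chromosome 1 from 212565334 to 212620777, had 82.4, 89.1 and 84.6 CPM with EC359, 8.46, 7.25 and 8.40 CPM with trametinib and 3.46, 2.79 and 3.62 CPM in control, so it rose with both agents, with a log2 difference between them of 3.40 ± 0.053 (SE). PPP1R15A, the phosphatase subunit GADD34 that restores translation, had 850.4, 856 and 832 CPM with EC359 and 108, 102 and 108 CPM with trametinib. DDIT4 and SESN2, both brakes on mTORC1, were at 52.9 ± 0.851 and 90.0 ± 1.87 CPM (SD, n = 3) with EC359 and at 9.60 ± 0.310 and 25.3 ± 0.0320 CPM with trametinib. ATF4, the central factor of the integrated stress response, had 679, 661 and 627 CPM with EC359 and 324, 336 and 339.9 CPM with trametinib, a log2 difference of 0.98 that fell just short of 2-fold and reached 1.01 without EC359 replicate 3.

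Of 18 integrated stress response genes, 13 were higher with EC359 and 4 with trametinib, with a median of 1.005. EIF2S1, the kinase substrate at the head of the pathway, had a difference of -0.036 (95% interval -0.086 to 0.015). Amino acid synthesis and transport genes, many of them ATF4 targets, followed with smaller differences: 24 of 32 were higher with EC359 and 1 with trametinib, with a median of 0.35. SLC38A2, a glutamine transporter, had 513, 543 and 533 CPM with EC359 and 139, 137 and 132 CPM with trametinib, and SLC7A11 and SLC3A2, the chains of the cystine transporter, differed by 1.54 and 1.17. SLC7A5 and SLC7A1, the most counted members under 2-fold, differed by 0.52 and 0.45.

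The unfolded protein response of the endoplasmic reticulum was split. Of 24 genes, 14 were higher with EC359 and 4 with trametinib, and the median of 0.14 turned to -0.017 under total counts. DNAJB9, a chaperone of the ER lumen, had 14.96, 15.4 and 13.9 CPM with EC359 and 2.65, 3.84 and 3.47 CPM with trametinib, and ERN1, which encodes the sensor IRE1, had 18.4, 17.3 and 16.7 CPM with EC359 and 4.03, 4.29 and 4.32 CPM with trametinib. The abundant chaperone HSPA5 (BiP) differed only by 0.21 and the lectin CANX by 0.25. HERPUD1, of ER-associated degradation, differed by 1.202.

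Cytosolic heat shock genes were higher with EC359 in 24 of 26 cases and higher with trametinib in 1, with a median of 0.39, and the strongly inducible members moved most. HSPA6, an inducible HSP70 on chromosome 1 from 161524540 to 161526897 that is nearly silent in unstressed cells, had 26.6, 26.7 and 26.4 CPM with EC359, 0.749, 1.29 and 1.07 CPM with trametinib and 1.18, 1.11 and 1.12 CPM in control, a log2 difference of 4.69. HSPA1A had 716, 771 and 982 CPM with EC359 and 51.4, 45.6 and 60.5 CPM with trametinib and HSPA1B 695, 786 and 999.5 CPM with EC359 and 57.7, 52.5 and 60.4 CPM with trametinib, but reads of these near-identical copies were divided between them and the levels of each are uncertain. The co-chaperone DNAJB1 had 937, 917 and 918 CPM with EC359 and 243, 249.6 and 250.9 CPM with trametinib. The constitutive HSPA8 and HSP90AA1 differed by 0.62 and 0.34.

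Heat shock factor binds inverted repeats of nGAAn, and the motif GAANNTTC, its own reverse complement, was in 9 of 23 promoters of the heat shock list (39.1%) against 4.75% of the promoters of genes tested. Its shares were 5.21% of genes called higher with EC359 and 6.19% of genes called higher with trametinib. The 200 bases before the HSPA6 start, chr1:161524340-161524539 on the plus strand (GRCh38.p14), hold it at 2 places, given in capitals, which begin 180 and 69 bases before the start.

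HSPA6: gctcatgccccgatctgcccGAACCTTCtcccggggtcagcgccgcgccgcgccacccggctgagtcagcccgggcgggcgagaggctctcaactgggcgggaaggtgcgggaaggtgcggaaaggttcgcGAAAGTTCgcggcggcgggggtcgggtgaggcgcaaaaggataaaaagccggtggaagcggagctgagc

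Oxidative stress genes were likewise on the EC359 side. Of 28 targets of the antioxidant factor NRF2 and its regulators, 25 were higher with EC359 and none with trametinib, 8 by at least 2-fold, with a median of 0.49. HMOX1, heme oxygenase 1, had 914, 899 and 862 CPM with EC359, 28.7, 30.6 and 30.5 CPM with trametinib and 19.1, 20.1 and 19.7 CPM in control, a log2 difference of 4.90 ± 0.032 (SE; adjusted p = 2.26e-68 by edgeR). TXNRD1, thioredoxin reductase, had 1407 ± 13.1 CPM (SD, n = 3) against 450.0 ± 6.40 CPM, MAFG had 179 ± 2.33 against 36.7 ± 2.15 CPM and OSGIN1 20.8 ± 0.976 against 3.92 ± 0.871 CPM. The ferritin genes FTH1 and FTL, whose products store iron, differed by 0.50 and 0.51.

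Of 26 genes of ferroptosis and iron handling, 17 were higher with EC359 and 7 with trametinib, with a median of 0.37. Besides HMOX1 and SLC7A11 they included SAT1, of polyamine breakdown, at 195, 203 and 198 CPM with EC359 and 40.8, 37.6 and 42.2 CPM with trametinib, and PTGS2, a common marker of ferroptosis, at 1.23, 1.04 and 1.54 CPM with EC359 and 0.0936, 0.152 and 0.130 CPM with trametinib. The trametinib values of PTGS2 lay near the limit of a count of 0, as did its control at 0.129 ± 0.0127 CPM (SD, n = 3). GPX4, the glutathione peroxidase that prevents this form of death, had 122, 116 and 116 CPM with EC359 and 119, 127 and 129 CPM with trametinib, libraries that overlapped, with a log2 difference of -0.086 (95% interval -0.15 to -0.023). Of 10 metallothionein and zinc sensing genes, 7 were higher with EC359 and 1 with trametinib, with a median of 0.69. The zinc exporter SLC30A1 had 30.4, 31.3 and 31.6 CPM with EC359 and 7.58, 9.65 and 8.95 CPM with trametinib, whereas the highly similar metallothionein genes MT2A and MT1E, whose reads can be shared, differed by 0.63 and 0.48. MT1H, counted in few reads, lost its call without EC359 replicate 3 (log2 difference 1.81).

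Death genes differed by subgroup. BBC3 and PMAIP1, which encode the BH3-only killers PUMA and NOXA, were both higher with EC359. BBC3 had 39.0, 41.4 and 39.2 CPM with EC359 and 5.77, 4.48 and 4.19 CPM with trametinib, a log2 difference of 3.04, with 3.32, 3.14 and 2.62 CPM in control, from which it rose with both agents (3.73 with EC359 and 0.68 with trametinib). PMAIP1 had 142, 153 and 156 CPM with EC359 and 30.8, 31.0 and 30.9 CPM with trametinib, one of 2.29. HRK, another BH3-only gene, and BCL2A1, a survival gene, were both near 2 CPM with EC359 and differed by 2.002 and 1.82. BCL2L11, which encodes BIM and is held down by ERK, rose with both agents, at 8.45, 8.76 and 7.57 CPM with EC359, 8.15, 9.31 and 8.11 CPM with trametinib and 5.36, 5.80 and 5.003 CPM in control. Its libraries overlapped between the agents and the log2 difference was -0.041 (95% interval -0.24 to 0.16). MCL1, a short-lived survival protein, had 512, 527 and 528 CPM with EC359, 257, 254 and 256 CPM in control and 164, 166 and 161 CPM with trametinib, whereas BCL2L1 fell with both agents and differed between them by 0.11, or by -0.047 under total counts.

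Over the 18 genes of the BCL2 family, 9 were higher with EC359 and 3 with trametinib, with a median of 0.22, and BAD had a difference of -0.045 (95% interval -0.13 to 0.037). Of 21 genes of death receptors and extrinsic apoptosis, 13 were higher with EC359 and 8 with trametinib, with a median of 0.32. The TRAIL receptor genes on chromosome 8 moved together: TNFRSF10B (DR5) had 192, 192 and 188 CPM with EC359 and 50.7, 52.1 and 49.996 CPM with trametinib, TNFRSF10A (DR4) 19.4, 19.5 and 18.6 CPM with EC359 and 5.59, 5.96 and 4.96 CPM with trametinib, and the decoy TNFRSF10D 85.5, 84.1 and 81.4 CPM with EC359 and 16.3, 15.5 and 14.9 CPM with trametinib. All 3 rose with EC359 and fell with trametinib against control. BIRC3, which encodes cIAP2, differed by 2.27, and BIRC5, which encodes survivin, was higher with trametinib (-0.54).

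Inhibitors of cyclin-dependent kinases stood on both sides. CDKN1A, the p21 inhibitor, had 196, 197 and 191 CPM with EC359, 15.5, 14.7 and 16.9 CPM with trametinib and 16.5, 16.5 and 17.0 CPM in control, a log2 difference of 3.63 ± 0.04 (SE; adjusted p = 2.92e-57 by edgeR). CDKN2C, the p18 inhibitor on chromosome 1 from 50968695 to 50974637, went the other way, with 12.1, 12.3 and 13.4 CPM with EC359, 43.2, 42.0 and 40.6 CPM in control and 57.5, 54.0 and 56.9 CPM with trametinib. Its log2 difference of -2.16 ± 0.055 (SE) was the lowest among the genes of at least 10 CPM that the size rule named, and it fell with EC359 and rose with trametinib. RB1 differed by 1.21, CDK4 by -0.12 and CDKN2A by 0.037 (95% interval -0.085 to 0.16). Over the 17 G1 genes, 7 were higher with EC359 and 6 with trametinib, with a median of 0.037 that was -0.12 under total counts.

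Among 25 direct p53 targets, 11 were higher with EC359 and 7 with trametinib, and the median of 0.013 was -0.15 under total counts. The members past 2-fold with the largest differences were PLK3, CDKN1A, BBC3 and GADD45A, of which GADD45A had 607, 674 and 646 CPM with EC359 and 135, 133 and 134 CPM with trametinib. CCNG1 had a log2 difference of 0.013 (95% interval -0.055 to 0.081) and BAX one of -0.12. MYC itself had 246, 237 and 237 CPM with EC359, 142, 139.8 and 147 CPM in control and 103, 93.9 and 102 CPM with trametinib. Its repressive relatives MXD1 and MNT differed by 2.55 and 1.32, and TXNIP, the glucose-sensing arrestin, was higher with trametinib, at 7.33, 6.38 and 6.78 CPM against 2.37, 2.65 and 2.29 CPM with EC359. Of these 14 MYC and MondoA genes, 9 were higher with EC359 and 3 with trametinib, with a median of 0.35.

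Mitosis and G2/M genes were higher with trametinib in 29 of 35 cases and higher with EC359 in 2, none by 2-fold, with a median log2 difference of -0.26. CCNB1, the mitotic cyclin, had 303, 299.8 and 307 CPM with EC359, 452, 456 and 458 CPM in control and 454, 457 and 449 CPM with trametinib, and TPX2 and TOP2A differed by -0.20 and -0.0077. Against control, 27 of the 35 fell with EC359, whereas 15 rose and 3 fell with trametinib. DNA replication and E2F genes divided more evenly, with 20 of 40 higher with EC359 and 15 with trametinib, and their median of 0.078 was -0.081 under total counts. E2F7, a repressive E2F, differed by 1.01, MCM7 by 0.44 and MCM4 by -0.03 (95% interval -0.084 to 0.023).

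The translation machinery moved by small amounts. Of 76 mitochondrial ribosomal protein genes, 55 were higher with trametinib and 3 with EC359, with a median of -0.21. All 63 that changed against control with EC359 fell, and so did all 21 that changed with trametinib, while 55 did not pass the test with trametinib. MRPL3 had 156, 157 and 157 CPM with EC359, 188, 182 and 183 CPM with trametinib and 208, 204 and 201 CPM in control. Cytosolic ribosomal protein genes lay on the other side, with 65 of 74 higher with EC359 and 1 with trametinib, but their median of 0.17 was 0.0076 under total counts. Of 54 genes of RNA polymerase I and ribosome assembly, 33 fell and 10 rose with EC359, and 45 fell and 1 rose with trametinib, and their median difference of 0.041 was -0.12 under total counts. Of 36 proteasome subunits, 23 were higher with EC359 and 3 with trametinib, with a median of 0.13 that was -0.032 under total counts. The nucleolar NPM1 and NCL differed by 0.16 and 0.093 and the proteasome subunit PSMB7 by 0.13, and all 3 turned to the trametinib side under total counts.

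**Figure D3:**
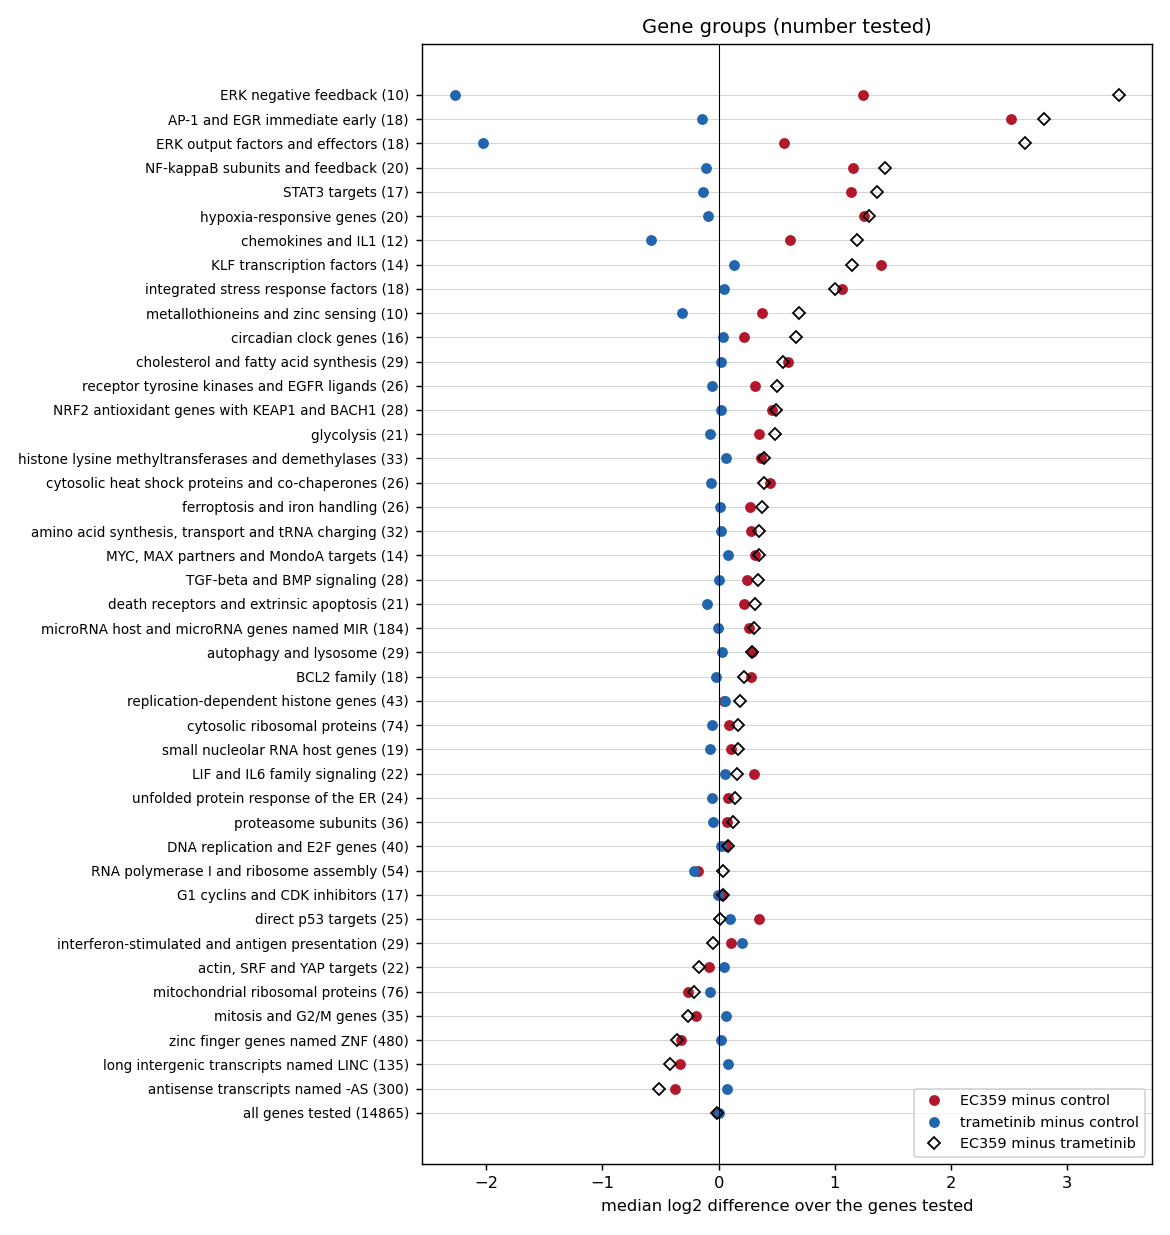
Median log2 difference over the tested genes of each group (number in parentheses) for EC359 minus control (red), trametinib minus control (blue) and EC359 minus trametinib (open diamonds), with all genes in the last row. The ERK feedback and output groups are the ones whose blue points lie far below 0, at -2.27 and -2.03, while most other groups differ through the red points.

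Metabolic genes again favored EC359. Of 29 genes of cholesterol and fatty acid synthesis, 19 were higher with EC359 and 1 with trametinib, with a median of 0.55. INSIG1, the SREBP retention protein, had 83.4, 85.1 and 81.9 CPM with EC359, 7.18, 7.42 and 6.83 CPM in control and 10.1, 9.04 and 9.67 CPM with trametinib, a log2 difference of 3.11 ± 0.052 (SE). The enzymes differed less: HMGCS1 by 1.34, SCD by 1.32 and FASN by 0.87. Of 21 glycolysis genes, 18 were higher with EC359 and none with trametinib, with a median of 0.49. The glucose transporter SLC2A3 had 191, 185 and 180.5 CPM with EC359 and 16.9, 16.1 and 16.8 CPM with trametinib, and hexokinase HK2 had 72.2, 67.5 and 71.3 CPM with EC359 and 9.46, 8.20 and 7.98 CPM with trametinib, whereas GAPDH and ENO1 differed by 0.29 and 0.27.

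Of 20 hypoxia-responsive genes, 18 were higher with EC359, 14 of them by at least 2-fold, and 1 was higher with trametinib, with a median of 1.30. NDRG1 had 353, 339 and 343 CPM with EC359, 40.9, 42.0 and 40.0 CPM in control and 24.997, 28.3 and 29.2 CPM with trametinib, and ANGPTL4, a lipase inhibitor, had 10.5, 11.3 and 10.1 CPM with EC359 and 0.593, 0.988 and 0.908 CPM with trametinib. The stanniocalcin gene STC2 had 118, 120.4 and 120.4 CPM with EC359 and 20.5, 19.6 and 16.5 CPM with trametinib. The gene of the oxygen-regulated subunit, HIF1A, was the member higher with trametinib (-0.14), and EGLN1, an oxygen sensor, differed by 0.74.

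KLF transcription factors were mostly higher with EC359, 12 of 14 with 10 by at least 2-fold, and 1 was higher with trametinib, with a median of 1.14. KLF6 had 1539, 1507 and 1509 CPM with EC359 and 272, 279 and 268 CPM with trametinib, KLF2 420.2, 427 and 432 CPM with EC359 and 49.0, 47.4 and 48.1 CPM with trametinib, and KLF4 38.6, 38.4 and 38.1 CPM with EC359 and 5.65, 5.70 and 6.10 CPM with trametinib. Trametinib left KLF6 near its control level of 262 ± 5.50 CPM (SD, n = 3; log2 change 0.059). Of 16 circadian clock genes, 10 were higher with EC359 and 2 with trametinib, with a median of 0.67. The nuclear receptors that set the phase of the clock, RORA, NR1D1 and NR1D2, differed by 2.99, 2.55 and 1.33, and BHLHE40 by 1.96, whereas CRY1 had a difference of -0.068 (95% interval -0.13 to -0.0034) and CLOCK one of 0.11 that was -0.053 under total counts.

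Of 33 histone lysine methyltransferase and demethylase genes, 22 were higher with EC359 and 6 with trametinib, with a median of 0.39. KDM6B, an H3K27 demethylase induced by inflammatory signals, had 110.5, 115 and 115 CPM with EC359, 8.96, 13.0 and 10.6 CPM with trametinib and 11.3, 12.4 and 11.6 CPM in control. KDM7A and KDM3A differed by 2.38 and 1.83, KDM2A by 0.60, and KMT2D by 1.02, which fell to 0.86 under total counts and so below 2-fold. Of 29 autophagy and lysosome genes, 20 were higher with EC359 and 1 with trametinib, with a median of 0.28. SQSTM1, the p62 cargo receptor, had 1578, 1570.3 and 1508 CPM with EC359, 502, 504 and 515 CPM with trametinib and 416, 424 and 407 CPM in control, and GABARAPL1 had 124, 125 and 124 CPM with EC359, 34.4, 35.1 and 35.1 CPM with trametinib and 23.5, 22.8 and 21.9 CPM in control. These 2 genes and ULK1 rose with both agents, less with trametinib.

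Receptor tyrosine kinases and EGFR ligands were mostly higher with EC359. Their median change from control with trametinib was -0.056, and 1 gene, EPHA2, fell by at least 2-fold with it. Of 26, 19 were higher with EC359 and 4 with trametinib, with a median of 0.50. EPHA2, an ephrin receptor, had 349.8, 354 and 346 CPM with EC359, 207, 216 and 215 CPM in control and 41.9, 42.0 and 42.2 CPM with trametinib, and HBEGF, a ligand of EGFR, had 120.1, 119 and 116 CPM with EC359, 32.4, 28.8 and 30.6 CPM in control and 18.4, 18.5 and 19.2 CPM with trametinib. IRS2, the insulin receptor adaptor, differed by 2.02, and the EGFR ligand AREG, near 2 CPM with EC359, by 2.19. The most counted receptor of the list, AXL, was slightly higher with trametinib (-0.19), and FGFR1 was slightly higher with EC359 (0.25).

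The 505 genes higher with trametinib were fewer at high expression. Of 2645 genes that reached 100 CPM in the higher group, 146 were called higher with EC359 and 9 higher with trametinib. Of 1464 genes under 1 CPM, 96 were higher with EC359 and 146 higher with trametinib, a class in which few reads stand behind each value. The median level was 24.3 CPM with EC359 for the genes higher with EC359 and 2.23 CPM with trametinib for the genes higher with trametinib.

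**Figure D4:**
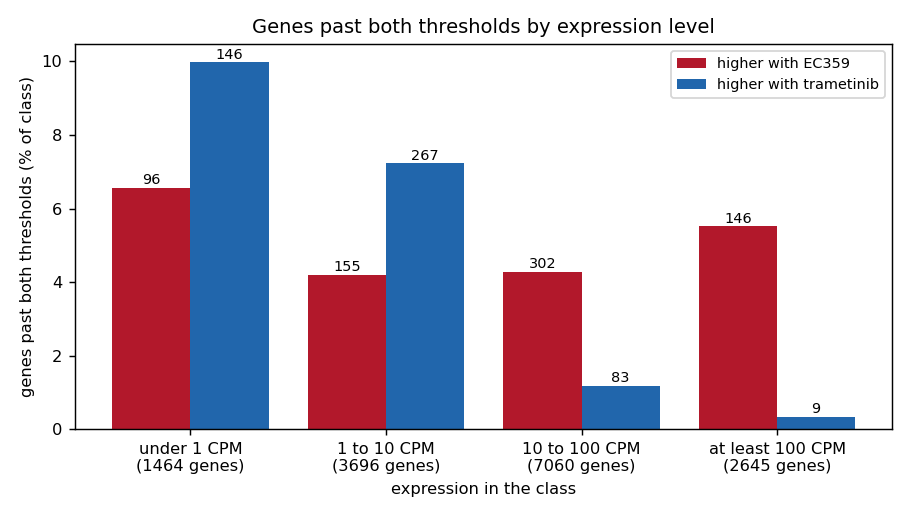
Share of genes past both thresholds in each class of expression (percent of the class, with the number of genes on each bar), by the mean CPM in the higher group. The red bars (higher with EC359) lie between 4.19% and 6.56%, while the blue bars (higher with trametinib) decline from 9.97% under 1 CPM to 0.340% at 100 CPM or more.

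In a first pattern among these genes, trametinib raised a gene and EC359 did not. ACTC1, cardiac actin, had 7.31, 7.02 and 5.44 CPM with EC359, 8.93, 8.88 and 8.74 CPM in control and 27.7, 30.5 and 27.7 CPM with trametinib, a log2 difference of -2.12 ± 0.074 (SE; adjusted p = 2.55e-32 by edgeR). TGFB2, a TGF-beta ligand on chromosome 1 from 218345334 to 218444619, had 8.37, 8.19 and 8.24 CPM with EC359, 11.5, 9.51 and 12.3 CPM in control and 28.3, 27.6 and 28.8 CPM with trametinib, a log2 difference of -1.77 ± 0.073 (SE). Both rose with trametinib, by 1.69 and 1.35, and fell with EC359, by 0.42 and 0.43 on the log2 scale. TRPC4, a calcium channel, was at 4.74 ± 0.570 CPM (SD, n = 3) with EC359, 9.28 ± 0.517 CPM in control and 15.3 ± 1.40 CPM with trametinib. Its fall with EC359 (0.96 on the log2 scale) was larger than its rise with trametinib (0.73), so it belongs only in part to this pattern.

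In a second pattern, EC359 lowered a gene far below control and trametinib changed it less or not past the threshold. INTS5, a subunit of the Integrator complex, had 13.9 ± 0.984 CPM (SD, n = 3) with EC359, 42.4 ± 2.32 CPM in control and 42.4 ± 1.65 CPM with trametinib, and CCDC71 had 8.83, 8.93 and 8.95 CPM with EC359, 29.8, 31.6 and 28.4 CPM in control and 28.4, 32.02 and 29.8 CPM with trametinib. Their changes with trametinib, -0.0019 and 0.0049, did not pass the test. CPT2, of mitochondrial fatty acid import, had 4.77, 5.04 and 4.65 CPM with EC359, 13.9, 13.7 and 13.6 CPM in control and 15.6, 16.1 and 15.02 CPM with trametinib, and TMEM177, of mitochondrial complex IV assembly, had 10.7, 9.60 and 9.34 CPM with EC359, 36.1, 38.6 and 34.5 CPM in control and 29.6, 30.0 and 32.5 CPM with trametinib. HOMEZ, C17orf97 and the uncharacterised LOC730101 and LOC644189 complete the 12 genes, with log2 differences between -1.69 and -2.07, and each fell with EC359. With trametinib TMEM177 fell by 0.24 on the log2 scale, LOC730101 rose by 0.39 and LOC644189 by 0.32, and the changes of CPT2, HOMEZ and C17orf97 did not pass the test.

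**Figure D5:**
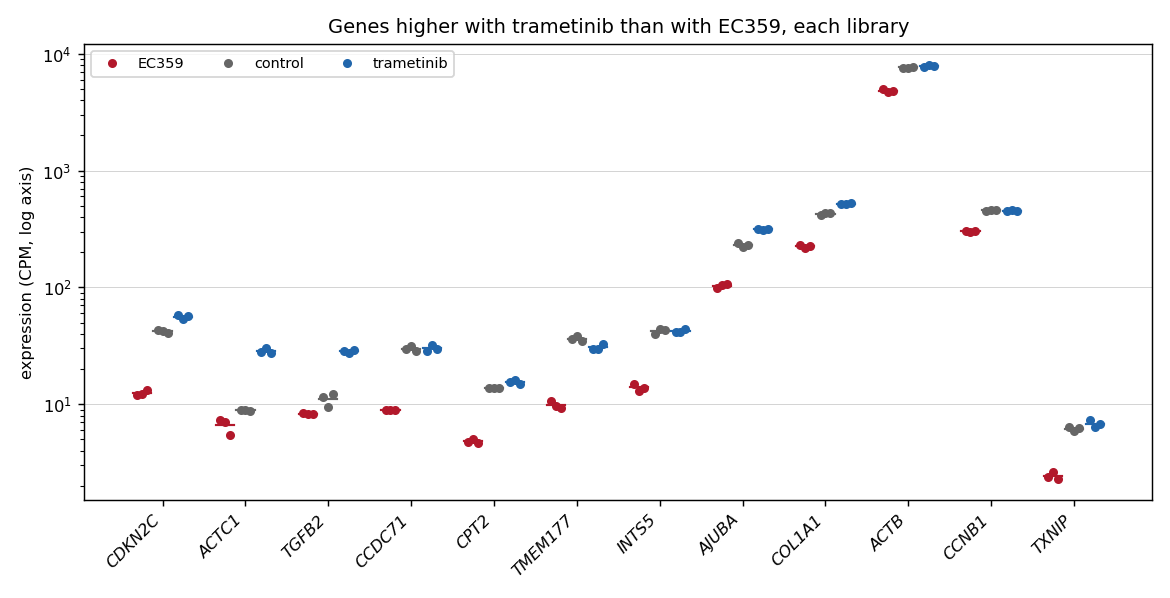
Expression (CPM, log axis) of 12 genes higher with trametinib in each library of EC359 (red), control (grey) and trametinib (blue), with a line at the mean of 3. In ACTC1 and TGFB2 the blue points stand above the grey, while in CCDC71, CPT2, INTS5, ACTB, CCNB1 and TXNIP the blue and grey points lie close and the red points below.

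TGF-beta signaling and the cytoskeleton were divided. Of 28 TGF-beta and BMP genes, 19 were higher with EC359 and 6 with trametinib, with a median of 0.34. INHBA, which encodes activin A, had 28.3, 29.6 and 27.6 CPM with EC359, 19.2, 17.2 and 18.2 CPM in control and 7.05, 7.41 and 6.98 CPM with trametinib, opposite to TGFB2. SMURF2 differed by 0.61, ID4 by 1.80, and GREM1, counted in few reads in libraries that overlapped, lost its call without EC359 replicate 2 (1.12). Of 22 actin, SRF and YAP targets, 13 were higher with trametinib and 7 with EC359, with a median of -0.17.

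Within that list, ACTB, the main cytoplasmic actin, had 5008, 4696 and 4837 CPM with EC359, 7483, 7626 and 7775 CPM in control and 7768, 8060.2 and 7816 CPM with trametinib, a log2 difference of -0.70, and ACTG1 differed by -0.44. AJUBA, a LIM protein of the Hippo pathway, had 98.7, 105 and 108 CPM with EC359, 239, 222 and 230.2 CPM in control and 314, 309 and 319 CPM with trametinib. The YAP targets CTGF and ANKRD1 went the other way. CTGF had 258, 249 and 245 CPM with EC359 and 23.2, 21.5 and 22.8 CPM with trametinib, and ANKRD1 had 495, 498 and 491 CPM with EC359 and 125, 118 and 122 CPM with trametinib. COL1A1, the collagen chain counted among markers of stroma, had 232, 219 and 227 CPM with EC359, 415, 435 and 429.8 CPM in control and 513, 516 and 525 CPM with trametinib. The other stromal markers COL1A2, COL3A1 and DCN had at most 5 counts in any library, and PDGFRB was at 15.9 ± 0.499 CPM (SD, n = 3) with EC359 and 21.6 ± 2.08 CPM with trametinib.

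Families of genes grouped by their symbol went to both sides. Of 480 ZNF genes, which encode zinc finger proteins, 271 were higher with trametinib and 83 with EC359, with a median of -0.35. Against control, 258 fell and 77 rose with EC359, while 37 fell and 33 rose with trametinib. Of 300 antisense transcripts named -AS, 139 were higher with trametinib and 22 with EC359, with a median of -0.51, and of 135 LINC transcripts 54 and 15, with a median of -0.42. MicroRNA and microRNA host genes named MIR had a median on the other side, 0.30. Of 184, 59 were higher with EC359, near the share of all genes (31.6%). Only 17 were higher with trametinib, under the share of all genes (31.2%), and 108 did not pass the test. Of 19 small nucleolar RNA host genes, 10 were higher with EC359 and 6 with trametinib, and of 43 replication-dependent histone genes 6 and 5. By RefSeq class, 96 of 681 lncRNA genes (14.1%) were called higher with trametinib and 15 (2.2%) higher with EC359. Among protein-coding genes the shares were 2.54% and 4.58%. Of 120 lncRNA genes of at least 10 CPM, 4 (3.33%) were higher with trametinib and 3 (2.5%) with EC359. At that level the shares of protein-coding genes were 0.859% and 4.65%, so the lncRNA share on the trametinib side stayed larger, though on few genes.

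Interferon-stimulated and antigen presentation genes did not favor one agent, with 8 of 29 higher with EC359 and 8 with trametinib and a median of -0.046. IRF1, an interferon response factor, had 31.0, 31.2 and 33.7 CPM with EC359 and 13.4, 13.5 and 13.2 CPM with trametinib, and IFIT5 had 4.44, 5.34 and 4.73 CPM with EC359 and 11.95, 11.9 and 11.5 CPM with trametinib. IFI27 was near 2 CPM with trametinib and near 0 with EC359, with a wide 95% interval of the log2 difference, -5.90 to -1.36. HLA-B and HLA-C, whose reads can be shared with related HLA genes, differed by 0.21 and 0.15, the latter -0.013 under total counts.

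Few strong changes were alike with both agents. Trametinib changed only 213 genes (1.43%) past both thresholds against control, which limits how many could be. Genes that moved in the same direction by unlike amounts are not counted here. ATF3, for example, rose past both thresholds with each agent, by 4.70 with EC359 and 1.29 with trametinib on the log2 scale. Only 3 genes of at least 10 CPM were past both thresholds against control in the same direction with each agent while the 95% interval of their direct difference lay within -1 to 1. TNFRSF9, the costimulatory receptor 4-1BB, had 11.9, 10.8 and 11.2 CPM with EC359, 10.6, 10.5 and 10.9 CPM with trametinib and 4.57, 5.26 and 4.33 CPM in control, and the difference between the agents was 0.077 (95% interval -0.091 to 0.25). KRT17 had 10.1, 10.6 and 10.8 CPM with EC359, 8.46, 8.55 and 10.9 CPM with trametinib and 4.36, 4.79 and 4.77 CPM in control, with a difference of 0.17 (0.0027 to 0.34; adjusted p = 0.0715 by edgeR). SDPR, a caveolar protein, fell with both, to 7.69, 6.11 and 8.43 CPM with EC359 and 13.6, 13.2 and 12.2 CPM with trametinib from 25.5, 27.2 and 25.9 CPM in control, and was lower with EC359 (-0.82; 95% interval -0.996 to -0.64).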

How the data were processed

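RNA of OVCAR8 cells was sequenced in 12 libraries, 3 per condition, and grouped by the treatment labels. The deposited values are estimated counts per gene that the authors made with featureCounts 1.5.0-p1 on UCSC hg38 gene models. Counting used strand and divided each multiply mapped or overlapping read, so 12.4 to 15.1% of values were not whole and near-identical genes share reads. The submitters' processing notes name bcl2fastq and HISAT2, with versions not given in the sources used here.

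Counts were rounded and fitted with edgeR 4.0.16 (limma 3.58.1, R 4.3.3) in one model of all 12 libraries with TMM factors (0.947 to 1.06) and the robust quasi-likelihood test. The filter (minimum count 10, total 15) kept 14865 of 26485 genes, of which 6337 had no count. A gene was called at a Benjamini-Hochberg adjusted p under 0.05 and at least 2-fold. CPM values use TMM factors, and floors of 3 counts cover counting error only. SEs and 95% intervals were derived from each log2 difference and the statistic of its test. They come out too narrow for large differences where a group has few reads. That of EGR1 between the agents was 0.097, under the 0.19 of its change with trametinib from control. They are therefore left out for EGR1, SPRY4, FOS, DUSP4, CXCL8 and HSPA6. The fit was tested on simulated data. Promoters are RefSeq windows of GRCh38.p14, 250 bases before to 50 after the start, and were matched to 11369 of the tested genes.

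Genes were named by 4 rules: the 12 largest differences in each direction among called genes of at least 10 CPM whose libraries did not overlap; in each list, up to 4 called members by size and up to 2 of the highest CPM that were not called; up to 6 genes of at least 10 CPM changed alike by both agents; and the genes of what the agents act on. JUN, MCL1, BCL2L11, CCNB1, GPX4, EPHA4, PAX8, KRT7 and the untested markers fall outside these rules and were chosen after their values were seen. A few genes that the rules name are not reported here. Members and lists were chosen with earlier results of these data known. Alternatives were DESeq2 1.42.0, other scaling and filters, only the groups compared, a replicate block, leaving out each library, and other fold rules.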

Additional observations from a re-analysis of the deposited data

How the results depend on the processing

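Of the counts, list medians and named genes above, most kept their direction and their side of the thresholds. Of 201 named genes, 186 had a value under all 13 alternatives that changed the scaling, the tool, the filter or the libraries, and 171 of these stayed on the same side throughout. The other 15, EGR1, SPRY4, DUSP6 and FOS among them, had too few reads for at least 1 filter, and 13 of them stayed on the same side wherever they were tested. DESeq2 called 1180 genes, 691 higher with EC359 and 489 higher with trametinib. Scaling by total counts moved the number higher with trametinib to 790. Requiring at least 10 counts in every library, which tests fewer genes, left 284 genes higher with trametinib, 236 lower with EC359 than control, and 134 changed by trametinib, 33 of them up. With no minimum fold, 9336 genes differed between the agents (4703 and 4633), 9077 between EC359 and control (4576 up, 4501 down) and 4197 between trametinib and control (1937 up, 2260 down). Leaving out each library gave 1201 to 1216 genes for the agents (687 to 721 and 495 to 514), 1003 to 1027 for EC359 against control (606 to 627 and 376 to 420) and 205 to 220 for trametinib against control (63 to 79 and 136 to 142).

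Under total counts the medians turned to -0.0019 for LIF and IL6 family signaling, -0.017 for the unfolded protein response, -0.15 for p53 targets, -0.12 for G1 genes, -0.081 for DNA replication, -0.12 for RNA polymerase I and -0.032 for the proteasome. The p53 median ran from -0.0023 (without trametinib replicate 3) to 0.12 (without EC359 replicate 3) when single libraries were left out. The same scaling turned BCL2L1 to -0.047, NPM1 to -1.98e-05, NCL to -0.067, CLOCK to -0.053, LAMP1 to -0.080, HLA-C to -0.013, PSMB7 to -0.026, WHSC1 to -0.043, KRT8 to -0.051, LIFR to -0.0039 and MAP2K2 to -0.078, and took E2F7 (0.85), ULK1 (0.86) and KMT2D (0.86) below 2-fold.

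Replicate numbers are shared between groups, but same-numbered EC359 and trametinib libraries did not deviate together (r = -0.19, -0.17 and 0.072 across 9405 genes). With the number as a replicate block, 1200 genes were called between the agents (697 and 503), 1035 for EC359 against control and 209 for trametinib against control. Not every library correlated best with its own number. The r was 0.20 for EC359 replicate 1 with trametinib replicate 2 and 0.23 for EC359 replicate 2 with trametinib replicate 1. The other pairs of unlike number lay between -0.051 and -0.019. Genes under 1 CPM rest on few reads, so that small differences among them were not detectable at this depth.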

Other observations

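The 3 libraries that received both agents belong to no comparison above, and their levels are given here as values only, with no test. Among ERK readouts, SPRY4 was at 1.51 ± 0.206 CPM, DUSP6 at 1.54 ± 0.387 CPM and ETV1 at 1.34 ± 0.211 CPM (SD, n = 3), each between the means of the single agents and closer to that of trametinib. EGR1 was at 8.54 ± 1.01 CPM and FOS at 18.6 ± 0.639 CPM, also between them. Among stress genes, HMOX1 was at 836 ± 22.4 CPM and CDKN1A at 172 ± 4.95 CPM, a little under the EC359 mean, whereas ATF3 was at 183 ± 2.96 CPM and GABARAPL1 at 186 ± 2.01 CPM, over the mean of either agent. BCL2L11 was at 14.2 ± 1.53 CPM, also over both, and CCDC71 and INTS5 were at 4.30 ± 0.361 and 7.17 ± 0.658 CPM, under both.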
